A study of Mus musculus with 15 samples.

Results

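Colon from mice of a colitis-associated cancer model on day 27, treated with saline, was compared with Control colon. The comparison used 6 of the 15 libraries of the series, 3 in each group, and all 56859 genes of the count table, of which 18038 had enough counts to test. All mice were C57BL/6J males of 6 to 10 weeks. The model joins a single injection of the carcinogen azoxymethane (AOM) with repeated periods of dextran sulfate sodium (DSS) in the water, a polymer that damages the lining of the colon. The saline D27 group is labelled with AOM at 10 mg/kg, 2.5% DSS and saline, the placebo of the drug arm. By the protocol the first DSS period covered days 7 to 11 and the second began on day 28, so day 27 came 16 days after DSS was last given. The Control libraries are labelled C57BL/6, WT, and no day is given for them. The protocol shared by all samples states that every mouse received AOM, so the AOM, DSS and saline treatment of the Control mice is not settled. The labels name neither the segment of colon nor the hour at which it was taken. They also do not say that each library came from a separate animal, so p-values measure only the spread between libraries. That spread was estimated over all 15 libraries of the series.

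The colonic epithelium renews itself from stem cells at the crypt base. Their progeny become absorptive colonocytes, which take up sodium, chloride, water and short-chain fatty acids, or secretory cells. Goblet cells release the gel-forming mucin Muc2 and proteins that bind or kill bacteria, enteroendocrine cells release hormones, and tuft cells sense luminal signals and take part in type 2 immune responses. After DSS injury the epithelium is rebuilt while lymphocytes and plasma cells gather in the lamina propria, and interferons raise antigen presentation in epithelial and immune cells.

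Library totals ranged from 13548661 counts (Control replicate 2) to 17919613 (saline D27 replicate 1). Levels are given as CPM, counts scaled to a common library size with TMM factors, always in the order of replicates 1, 2 and 3, and differences as log2 fold changes, saline D27 minus Control, with a standard error (SE). A gene is said to have risen or fallen where the Benjamini-Hochberg adjusted p of edgeR's quasi-likelihood test over all 18038 genes was below 0.05, and every adjusted p below is of that test. With 3 libraries against 3 an exact permutation test of a single gene cannot go below 0.1. Colon epithelium markers were present in all 6 libraries, taking 1.34, 1.40 and 1.40% of counts in Control and 1.30, 1.34 and 1.18% at D27.

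Control replicates 1 and 3 stood apart from the other 4 libraries in transcripts of other tissues. Genes of squamous epithelium, the stratified lining of skin and anal canal, took 0.160, 0.00155 and 0.0753% of counts in the Control libraries and 0.00148, 0.00146 and 0.00118% at D27. Skeletal muscle genes took 0.257, 0.00360 and 0.115% and 0.00329, 0.00316 and 0.00353%, and sebaceous gland genes, from the oil glands of skin, 0.00786, 0.000133 and 0.00511% and 0.000140, 4.73e-05 and 0.000163%. In each of these lists Control replicate 2 lay with the D27 libraries, far below Control replicates 1 and 3. Of 18 squamous genes tested 12 fell, and of 19 skeletal muscle genes 19 fell, with median log2 fold changes of -6.29 and -4.27. Without Control replicates 1 and 3 edgeR called none of either list, with 0 and 3 members at an unadjusted p under 0.05. Against Control replicate 2 alone the skeletal muscle median was -0.34. Of 2 sebaceous genes tested 1 fell. Leaving out single libraries, falls on the squamous epithelium list numbered 7 without D27 replicate 2. Falls on the sebaceous gland list numbered 2 without D27 replicates 1 or 3 and 4 without Control replicate 2. Each such fit filtered genes anew, and the last tested more sebaceous genes than the 2 above.

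Single genes show the same division. Krt1, a keratin of the outer skin layers, was at 286, 0.438 and 174 CPM in Control and at 0.112, 0.138 and 0.0620 at D27. The keratins Krt4 and Krt5 were at 174, 0.219 and 70.1 and at 96.7, 0.511 and 36.3 CPM in Control and at no more than 0.2 CPM in any D27 library. Myh8, a skeletal muscle myosin, was at 606, 0.438 and 265 CPM in Control, with 13414 counts in that group and 2 at D27, a ratio of 7360 with a 95% counting interval of 2040 to 60800. Acta1, skeletal actin, was at 433, 2.48 and 209 CPM in Control and 6.64, 6.33 and 5.27 at D27. Krtdap, a keratinocyte protein, had 746 counts over the Control group and 3 over the D27 group, a ratio of 273 (interval 93.0 to 1330). Them5, a thioesterase with 210 counts in Control and none at D27, was at least 76.8-fold lower taking 3 counts over the group as the floor, and Sprr3, of the cornified envelope, at least 186-fold lower (509 counts and none). The sebaceous genes Awat1, Dgat2l6 and Elovl3 had 203, 116 and 288 counts in Control, all in replicates 1 and 3, and none at D27, so that they were at least 74.2-fold, 42.4-fold and 105-fold lower. These falls describe Control replicates 1 and 3, not the Control group. Among these genes, the call was lost for Krt4 without D27 replicates 1, 2 or 3 or Control replicate 1 (adjusted p up to 0.0823) and for Krt5 and Sprr3 without D27 replicates 1, 2 or 3 or Control replicates 1 or 3 (adjusted p up to 0.149).

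**Figure D1:**
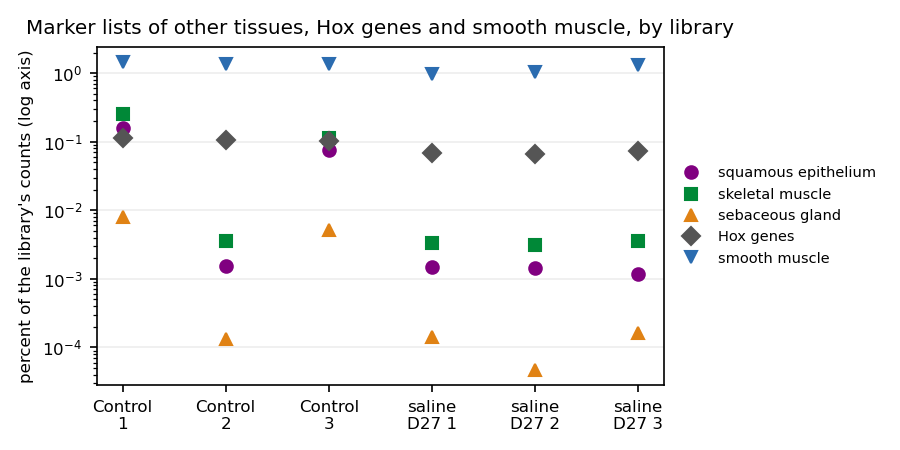
Share of each library's counts (log axis) taken by marker lists, for the 3 Control and 3 saline D27 libraries, 1 point per list and library. Squamous, skeletal muscle and sebaceous genes are high in Control 1 and 3 and low in the other 4 libraries, while Hox genes are lower in every D27 library and smooth muscle genes take between 0.961% and 1.44%.

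Some homeobox genes of the Hox clusters, whose expression marks position along the gut, were lower at D27 than in all Control libraries, replicate 2 included. Hoxd13, the most posterior gene of its cluster, was at 249.5, 250.2 and 226 CPM in Control and at 90.8, 86.7 and 93.7 at D27 (log2 -1.42, SE 0.263, adjusted p = 0.00214), and no library of one group reached the other group. Hoxd9 was at 10.9, 12.3 and 11.9 and 3.62, 3.10 and 2.17 CPM (log2 -1.98). Hoxa13 went from 65.7 ± 5.88 to 34.4 ± 3.97 CPM (mean ± SD, n = 3, as for every such pair below) and fell. Of 26 Hox genes tested, 5 fell (Hoxd9, Hoxd13, Hoxd10, Hoxa13 and Hoxb13) and none rose. That is 19.2% of the list, beside 9.36% falling and 19.5% called in either direction over all genes. The median of the list was -0.27, beside -0.00127 over all genes tested, and -0.257 against Control replicate 2 alone. The anterior genes Hoxa5 (log2 0.16) and Hoxb4 (0.61) were not called. The summed Hox share was 0.113, 0.107 and 0.101% in Control and 0.0690, 0.0655 and 0.0740% at D27. This difference separates the same 3 libraries from the same 3 as every result below, and its part in them was not tested. Hoxc10, with 26 counts in Control, all in replicates 1 and 3, and none at D27, and Hoxc11, with 38 and 1, followed the squamous genes instead. In fits without 1 library, falls on the Hox list numbered 3 without D27 replicates 1 or 2 or Control replicates 1 or 3. By the same edgeR test, calls did not survive for Hoxb13 without any 1 of the 6 libraries (adjusted p up to 0.141) and for Hoxd10 without D27 replicates 1 or 2 or Control replicates 1, 2 or 3 (adjusted p up to 0.188).

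At D27, 1833 genes rose, which is 10.2% of those tested, and 1689 fell, which is 9.36%, together 19.5%. Of the rises 863 were at least 1 on the log2 scale, and of the falls 409 were. In 6893 genes, 38.2% of those tested, the 3 libraries of one group lay entirely above the 3 of the other. Control replicate 2 lay below all D27 libraries in 1820 of the rises (99.3%) and above them in 1605 of the falls (95.0%). These shares cannot test whether the calls rest on Control replicates 1 and 3. Replicate 2 was itself part of the contrast, and in 3380 of the 3522 called genes the groups did not overlap. Leaving out Control replicates 1 and 3 leaves 1 Control library and little power, and 225 genes then rose and 229 fell. Leaving out saline D27 replicate 2 gave 1022 and 777, Control replicate 1 1172 and 1011, Control replicate 3 1229 and 1116, and saline D27 replicate 1 1265 and 1079. In bulk tissue fewer cells of a type and less RNA per cell cannot be told apart, which holds for every gene group below.

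The genes whose groups lay farthest apart were chosen by the gap between the lowest library of the higher group and the highest library of the lower group. Retnlb (chromosome 16, 48816856 to 48818892, plus strand, GRCm38) encodes a secreted goblet cell product that kills or repels bacteria and was at 0.257, 0.292 and 0.200 CPM in Control and 760.1, 1468 and 1005 at D27 (log2 12.04, SE 1.38, adjusted p = 1.00e-04). Ang4 (chromosome 14, 51763878 to 51773590, minus strand), an antimicrobial ribonuclease, was at 0.965, 0.803 and 0.533 and 1763, 2361 and 1871 CPM (log2 11.33, SE 1.05). Both were near 0 in all Control libraries and among the abundant transcripts of every D27 library. Pla2g4c (chromosome 7, 13324655 to 13360672, plus strand), a cytosolic phospholipase A2, was at 0.450, 0.657 and 0.466 and 304, 461 and 134 CPM. Its D27 libraries spread more widely than those of Ang4, and all lay above Control. Itln1, a lectin of the mucus that binds bacterial sugars, was at 0.515, 0.584 and 0.533 and 35.7, 54.7 and 46.02 CPM, and Mptx1, a mucosal pentraxin, at 692, 721 and 767 and 6822, 8716 and 7837 CPM.

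Others on that list have no single role in common. Pnliprp2, a lipase-related gene, was at 2.44, 1.75 and 1.60 and 63.2, 90.7 and 71.6 CPM. Kcnj16, an inward rectifier potassium channel, was at 0.257, 0.292 and 0.133 and 9.70, 7.44 and 9.74, Apol10a, of the apolipoprotein L family, at 4.37, 1.97 and 2.86 and 73.2, 80.98 and 73.00, and Grpr, the receptor of gastrin-releasing peptide, at 0.0643, 0.0730 and 0.266 and 5.41, 4.34 and 4.34. Zbed6, a transposon-derived DNA-binding protein encoded within the Zc3h11a gene on the same strand, was at 3.09, 3.36 and 2.93 and 33.6, 30.9 and 49.9 CPM, whereas its host Zc3h11a was not called (log2 0.69), and reads of such overlapping genes may be divided between them. Of the falls on that list, Minar1, a membrane protein, was at 8.43, 5.40 and 5.92 and 0.502, 0.826 and 0.744 CPM, Itih2, a carrier of hyaluronan, at 30.7, 28.99 and 26.96 and 7.97, 3.31 and 6.88, and Wnt8b, a Wnt ligand, at 7.08, 5.99 and 8.25 and 1.45, 0.413 and 1.43. Myo18b, known from striated muscle, and the lipid-binding Sec14l4 were lower in Control replicate 2 than in the other Control libraries, at 17.9, 6.87 and 9.32 and at 9.26, 2.34 and 7.99 CPM, yet replicate 2 too lay above the D27 libraries, at 1.17, 0.964 and 1.36 and at 0.502, 0.482 and 0.248 CPM.

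**Figure D2:**
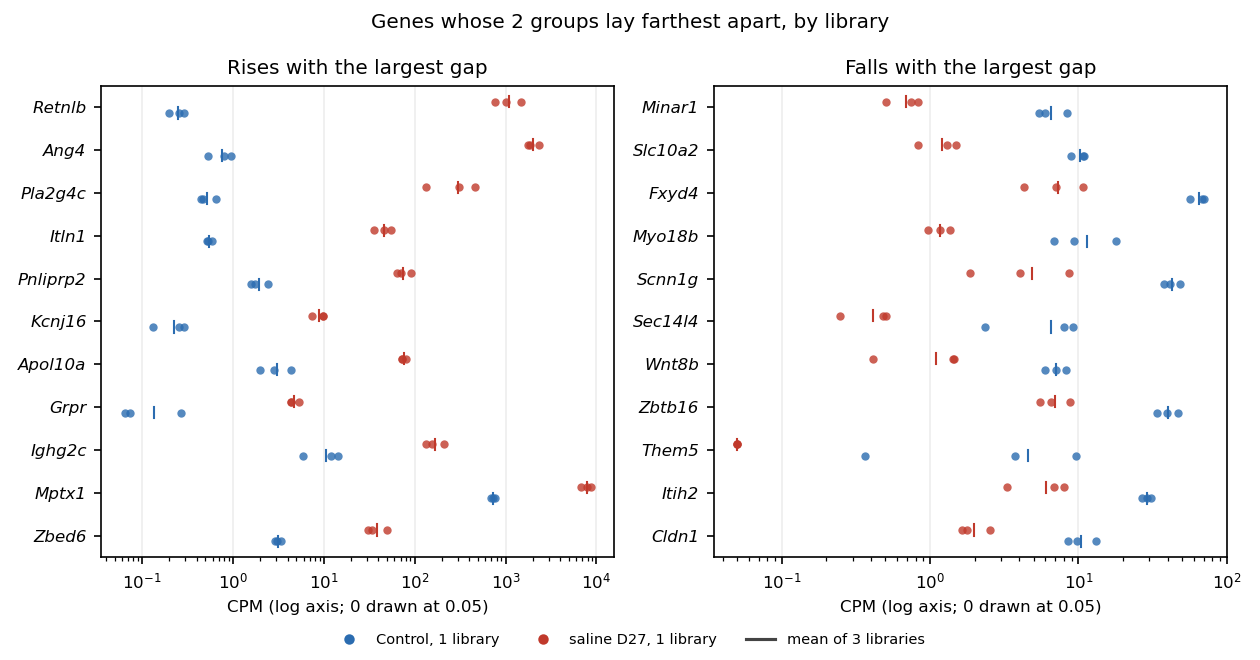
CPM (log axis) of the rises and falls with the largest gap between groups, 1 point per library and a bar at each group's mean. Retnlb goes from at most 0.292 CPM in Control to at least 760.1 at D27, and in the right panel Them5, Sec14l4 and Myo18b show a wider Control spread than Fxyd4, Scnn1g or Itih2.

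Goblet cell genes were higher at D27 as a group. Of 15 tested 13 rose and none fell, 8 rising without Control replicates 1 and 3, with a median log2 fold change of 0.87. Together they took 1.23, 1.15 and 1.12% of all counts in the Control libraries and 5.71, 6.45 and 5.32% at D27. Muc2 was at 2439.8, 2649 and 2297 CPM in Control and 12332, 15249.8 and 12974 at D27 (log2 2.46, SE 0.193, adjusted p = 7.34e-06). Clca1, a mucus-processing protease, was at 2687, 2069 and 2087 and 20529, 22826 and 19712 CPM (log2 3.20), and Fcgbp, which cross-links the mucus, at 3707, 3608 and 3622 and 18230.4, 21709.6 and 14924 CPM (2.33). Spink4, a secreted inhibitor peptide, moved most, from 57.4, 69.02 and 57.98 to 594, 848 and 656 CPM. The transcription factors of the lineage rose too, Spdef by log2 1.84, Foxa3 1.00 and Atoh1 0.85. Tff3 (0.87) and Zg16 (0.55) rose as well, and Klk1 (0.41) and Bcas1 (0.28) were not called. Single libraries carried some of these calls, which were lost for Atoh1 without D27 replicate 2 or Control replicate 2 (adjusted p up to 0.0963) and for Zg16 without D27 replicates 1 or 2 or Control replicates 1, 2 or 3 (adjusted p up to 0.182).

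Enzymes that build and sulfate mucin sugars were divided. Of 22 tested 10 rose and 2 fell (2 and 1 without Control replicates 1 and 3, median 0.43). B4galnt2, which makes a blood-group-like terminal sugar, was at 45.4, 54.5 and 40.6 CPM in Control and 117, 126 and 127 at D27 (log2 1.40), and the sulfotransferase Chst4 at 32.04, 47.6 and 35.9 and 92.9, 109 and 89.99 (1.33). The sialyltransferase St3gal4 (1.05), the fucosyltransferase Fut2 (0.60) and Galnt12, which starts O-glycans (0.68), also rose. Gcnt1, which branches core O-glycans, fell from 111, 117 and 99.3 to 42.8, 34.9 and 44.7 CPM (-1.41), and B4galnt3 fell by less (-0.67). The core 1 synthase C1galt1 was not called (0.02). In fits leaving out 1 library, the call was lost for Fut2 without D27 replicates 1 or 2 or Control replicates 1 or 3 (adjusted p up to 0.148).

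Among antimicrobial proteins and lectins 8 of 19 rose and Wfdc2 fell (2 and none without Control replicates 1 and 3, median 1.18). Beside Retnlb, Ang4, Itln1 and Mptx1, the lectin Reg4 went from 169, 198 and 197 to 1712, 2258 and 1947 CPM (log2 3.39) and the peptidoglycan receptor Pglyrp1 from 108, 130.1 and 117 to 207, 179.8 and 165 (0.63). Reg3b, a bactericidal lectin, had no count in Control and 49 at D27, at least 14.9-fold higher taking 3 counts over the group as the floor, without an edgeR call. Its relative Reg3g was also low and not called (0, 0.438 and 0 and 1.56, 1.65 and 1.05 CPM). Lypd8, which keeps flagellated bacteria from the epithelium (-0.05), Dmbt1 (-0.46) and the galectin Lgals4 (-0.20) were abundant and not called. Reads of the related genes Ang4 and Ang may be divided between them. Some calls depended on 1 library and were lost for Ang without D27 replicates 1, 2 or 3 or Control replicates 1 or 3 (adjusted p up to 0.112) and for Wfdc2 without D27 replicates 2 or 3 or Control replicate 1 (adjusted p up to 0.0810).

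Tuft cell genes were higher as a group, with 8 of 9 tested called (4 without Control replicates 1 and 3, median 1.54). Trpm5, the channel that transmits their taste-like signals, was at 2.12, 4.82 and 4.33 CPM in Control and 13.05, 21.8 and 16.8 at D27 (log2 2.20, SE 0.285), and Dclk1, the kinase that marks them, at 14.1, 17.02 and 12.5 and 26.5, 37.4 and 36.8 (1.21). Avil (1.92), Sh2d6 (2.16) and the G protein Gnat3 (3.21) rose, and the lineage factor Pou2f3 was at log2 1.34, not called. Il25, the cytokine of these cells, had too few counts to test (4, 0 and 0 in Control, 4, 3 and 0 at D27). Of the type 2 cytokine genes, Il13 had no count in any Control library and 13, 6 and 5 at D27, at least 7.29-fold higher against the same floor and too low to test. The receptors Il4ra (0.98) and Il1rl1, which binds interleukin-33 (1.64), rose, while Il4 (-0.93) and Il33 itself (-0.52) were not called. The epithelial gasdermins Gsdmc2, at 386, 403 and 385 and 2331, 2052 and 1342 CPM (2.29), Gsdmc4 (1.39) and Gsdmcl2 (1.52) rose, and Gsdmc3 (0.85) and Gsdmc (0.82) were not called. These gasdermins were chosen after their values were seen, and as near-identical copies their reads may be divided between them. With 1 library left out, calls were lost for Gsdmc4 without D27 replicates 1 or 2 or Control replicates 1 or 3 (adjusted p up to 0.0536) and for Il1rl1 without D27 replicate 2 (adjusted p up to 0.0699).

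Mast cell genes included 5 rises among 8 tested. Mcpt2, a protease of mucosal mast cells, had 3 counts over the Control group and 73 over the D27 group, a ratio of 22.2 with a 95% counting interval of 7.30 to 110, and its neighbour Mcpt1 was at 0, 0.730 and 0.399 and 4.80, 1.45 and 0.744 CPM. The connective tissue protease Cma1 (1.03) and the receptor Kit, which interstitial pacemaker cells also carry (0.54), rose, and Cpa3 (0.13) was not called. Leaving out Control replicates 1 and 3 together, edgeR calls were none on the mast cell list (4 at an unadjusted p under 0.05). Left out singly, some libraries moved these counts, so that rises on the mast cell list numbered 1 without Control replicate 3 and 3 without D27 replicates 1 or 3 or Control replicates 1 or 2. Among these genes, the call was lost for Cma1 without D27 replicate 3 or Control replicates 2 or 3 (adjusted p up to 0.0550), for Kit without D27 replicate 3 or Control replicates 1 or 3 (adjusted p up to 0.0728) and for Mcpt1 without D27 replicates 1 or 2 or Control replicates 1 or 3 (adjusted p up to 0.237).

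Of 15 enteroendocrine genes tested 2 rose and 1 fell, a share of 3 in 15 beside 19.5% over all genes, with a median of 0.15. Insl5, a hormone of distal colonic L cells, was at 33.9, 36.2 and 41.7 and 75.2, 74.7 and 77.5 CPM (log2 1.02) and Sst, somatostatin, at 6.69, 6.06 and 5.19 and 11.5, 11.7 and 10.1 (0.89), while Ddc, an amine-synthesising enzyme, fell (-0.57). Chga (0.18), Gcg (0.37) and Pyy (0.32) were not called. The edgeR fit without Control replicates 1 and 3 gave 1 rise and 1 fall on the enteroendocrine list. The rises became 1 without any of D27 replicates 1, 2 and 3 and Control replicates 1 and 3. By the same edgeR test, calls did not survive for Sst without any 1 of the 6 libraries (adjusted p up to 0.141).

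Ion and water transport genes of colonocytes fell in 8 of 21 cases and rose in 2 (5 and 1 without Control replicates 1 and 3, median -0.47). The epithelial sodium channel, which takes up sodium in the distal colon, differed by subunit. Its gamma subunit Scnn1g (chromosome 7, 121734479 to 121768475, plus strand) was at 41.2, 37.9 and 48.7 CPM in Control and 8.59, 4.06 and 1.86 at D27 (log2 -3.13, SE 0.524, adjusted p = 0.00114), the beta subunit Scnn1b at 35.3, 24.1 and 28.4 and 8.42, 6.40 and 7.44 (-1.98), and the alpha subunit Scnn1a, at 200.2, 215 and 234 and 219.8, 223 and 176, was not called. Fxyd4, a subunit that modulates the sodium pump, was at 68.4, 56.2 and 69.9 and 7.08, 4.27 and 10.7 CPM (-3.14). The anion exchanger Slc26a3 fell from 1138, 1593 and 1257 to 539, 532 and 618 CPM, with the sulfate transporter Slc26a2 (-1.24), the bicarbonate cotransporter Slc4a4 (-1.36) and the short-chain fatty acid carrier Slc16a1 (-0.77). The sodium-proton exchanger Slc9a3 (1.32) and the water channel Aqp4, at 102, 140.3 and 106 and 355, 426 and 422 CPM (1.79), rose. Aqp8 (-0.16) and Cftr (-0.29) were not called. Rises became 1 without any of D27 replicate 2 and Control replicates 1, 2 and 3. Single libraries carried some of these calls, which were lost for Slc9a3 without D27 replicate 2 or Control replicates 1, 2 or 3 (adjusted p up to 0.174).

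Genes that corticosteroid receptors are known to induce were looked at after their values were seen, since the sodium channel subunits and Fxyd4 are among aldosterone's targets. Sgk1, a kinase that keeps the sodium channel at the membrane, was at 610.0, 668 and 377 CPM in Control and 175, 101 and 116 at D27 (log2 -2.08, SE 0.318, adjusted p = 6.49e-04). Zbtb16, a transcription factor, was at 46.7, 39.4 and 33.7 and 8.75, 6.54 and 5.52 CPM (-2.52), and Fkbp5, a chaperone of steroid receptors, at 146, 139.9 and 158 and 60.7, 90.1 and 52.2 (-1.13). The groups did not overlap in any of these genes. That held for 38.2% of all genes tested, and genes chosen after their values were seen cannot test it. Klf9 (-0.85), the mineralocorticoid receptor Nr3c2 (-0.75) and Hsd11b2, which protects that receptor from glucocorticoids (-0.51), fell by less. Tsc22d3 (-0.37) and the glucocorticoid receptor Nr3c1 (-0.10) were not called, though equality was not shown. In fits leaving out 1 library, the call was lost for Hsd11b2 without D27 replicates 2 or 3 or Control replicates 1 or 2 (adjusted p up to 0.0931).

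Carbonic anhydrases, which supply protons and bicarbonate, were split. Car1 was at 724, 781 and 1152 CPM in Control and 176, 232 and 218 at D27 (log2 -2.08) and Car2 fell (-0.86), whereas Car12 (0.67) and the non-catalytic Car8 (1.28) rose. The guanylin hormones Guca2a, at 112, 128 and 144 and 265, 318 and 254 CPM, and Guca2b (1.02) rose, and their receptor Gucy2c was not called (-0.20). Of metal transport and storage genes 5 of 14 fell and 2 rose. The manganese exporter Slc30a10 was at 18.9, 12.6 and 24.2 and 2.23, 1.31 and 4.03 CPM, the iron exporter Slc40a1 at 286, 301 and 292 and 179.8, 83.6 and 154, and metallothionein Mt1 at 83.4, 46.01 and 68.8 and 25.6, 22.4 and 26.05, all lower at D27, while the zinc importer Slc39a4 rose (0.71). With Control replicate 2 as the only Control library, edgeR called none on the carbonic anhydrase and guanylin list (7 at an unadjusted p under 0.05) and none on the metal transport and storage list (6 at an unadjusted p under 0.05). By edgeR again, falls on the metal transport and storage list numbered 3 without D27 replicate 2. Some calls depended on 1 library and were lost for Car12 without D27 replicates 2 or 3 or Control replicates 1, 2 or 3 (adjusted p up to 0.158) and for Slc30a10 without D27 replicate 2 (adjusted p up to 0.0648).

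In tight junctions 5 of 15 genes fell and 1 rose, 40.0% beside 19.5% called over all genes. Cldn1, a sealing claudin, was at 13.1, 8.47 and 9.72 CPM in Control and 1.78, 1.65 and 2.54 at D27 (log2 -2.38), and Ocln at 162, 172 and 177 and 92.8, 75.5 and 105 (-0.90). Cldn8, known to limit sodium back-leak in the distal colon, fell (-0.62), and the pore-forming Cldn15 rose from 32.9, 29.1 and 29.6 to 108, 136 and 113 CPM (1.96). The abundant Cldn3 (-0.07) and Cldn7 (-0.10) and the leaky Cldn2 (-0.24) were not called. Squamous cells also express Cldn1, and in Control replicate 2, which was low in squamous transcripts, it lay above all D27 libraries. Once Control replicates 1 and 3 were left out, edgeR called 1 rise and 1 fall on the tight junction list. Counts depended on single libraries, and falls on the tight junction list numbered 2 without D27 replicate 2 and 3 without Control replicate 3. With 1 library left out, calls were lost for Cldn8 without D27 replicate 2 or Control replicate 2 (adjusted p up to 0.113).

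**Figure D3:**
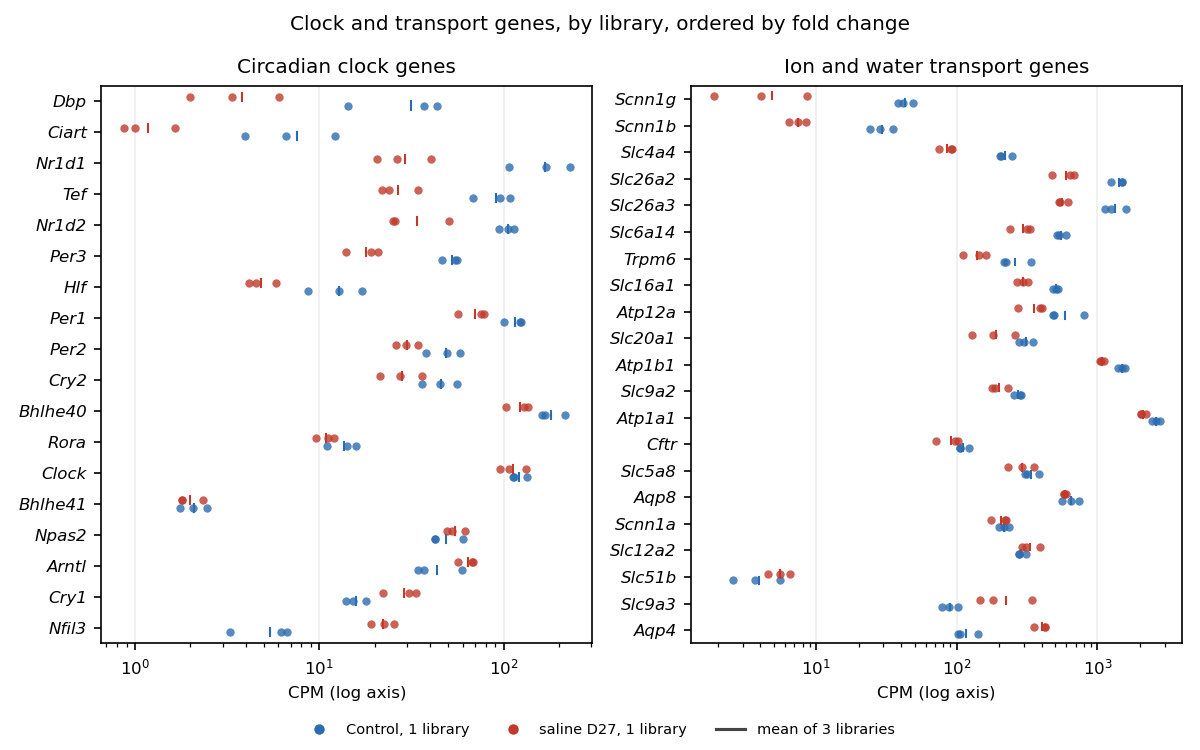
CPM (log axis) of circadian clock genes (left) and colonocyte transport genes (right) in each library, ordered by log2 fold change, with a bar at each group's mean. Dbp, Nr1d1 and Scnn1g lie lower in every D27 library than in any Control library, while Cry1, Nfil3, Slc9a3 and Aqp4 lie higher.

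Genes of the circadian clock moved in both directions, with more falls than rises. Of 18 tested 9 fell and 2 rose (4 and 1 without Control replicates 1 and 3, median -0.69). In the clock, Arntl and Clock activate transcription through the E-box, the Per and Cry proteins repress them, and Nr1d1 and Nr1d2 repress Arntl. Dbp, an output factor, was at 36.9, 14.2 and 43.5 CPM in Control and 3.35, 2.00 and 6.02 at D27 (log2 -3.05, SE 0.518). Nr1d1 was at 169.9, 107 and 229 and 26.4, 20.5 and 40.3 CPM (-2.54, adjusted p = 5.38e-04), Ciart, a repressor, at 6.63, 3.94 and 12.1 and 1.00, 1.65 and 0.868 (-2.69), and Tef, a relative of Dbp, at 96.3, 68.5 and 109 and 21.97, 23.8 and 34.4 (-1.77). Per3 (-1.54), Per1 (-0.73) and Cry2 (-0.69) fell, and Per2 (-0.70) missed the threshold. Cry1, at 15.2, 17.97 and 14.05 and 30.8, 33.5 and 22.3 CPM, and Nfil3, which competes with Dbp for its sites, at 6.18, 6.72 and 3.26 and 25.4, 22.4 and 18.98, rose, and Arntl (0.56) and Clock (-0.11) were not called. No source gives the hour of sampling, so hour and group cannot be told apart. Among these genes, the call was lost for Cry2 without D27 replicates 1 or 2 or Control replicates 1 or 2 (adjusted p up to 0.167).

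Promoter sequences of clock genes were searched for the E-box CACGTG on both strands, over the 300 bases around each gene's start, mostly upstream (RefSeq, GRCm38.p6). Of 16 clock genes with a promoter in that set 5 held it, against 7.15% of all 32851 promoters and 8.09% of their 27025 genes. They were Ciart, Tef and Per1, which fell, Cry1, which rose, and Bhlhe41 (log2 -0.08), which was not called. The Ciart promoter (chr3:95882179-95882478, minus strand) held 3 matches and is shown because Ciart had the second largest fold among the clock genes, with the E-boxes in capitals. A match describes the letters of the window and is not evidence of binding.
Ciart: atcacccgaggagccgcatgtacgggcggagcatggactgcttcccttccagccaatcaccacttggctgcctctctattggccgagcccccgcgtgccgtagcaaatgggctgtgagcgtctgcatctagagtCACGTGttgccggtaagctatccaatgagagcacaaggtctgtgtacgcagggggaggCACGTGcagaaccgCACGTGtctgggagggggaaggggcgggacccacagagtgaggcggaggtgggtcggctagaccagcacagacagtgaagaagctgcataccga

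Fatty acid oxidation genes were lower, and those of lipid synthesis higher. Of 21 oxidation genes 13 fell and 1 rose (2 and none without Control replicates 1 and 3, median -0.44). Cpt1a, which admits fatty acids to mitochondria, was at 436, 399 and 410.3 CPM in Control and 232, 215 and 255 at D27 (log2 -0.82), and Pdk4, which spares glucose, at 26.1, 15.04 and 22.7 and 6.91, 8.54 and 7.57 (-1.47). Slc25a20 (-0.76), Acaa2 (-0.69) and Acadm (-0.52) followed. Fabp2, which binds fatty acids in enterocytes, rose (1.86), and the receptor Ppara was not called (0.42). Without D27 replicate 2, 7 of the oxidation genes fell.

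Of 22 genes of fatty acid and cholesterol synthesis 13 rose and none fell, with 1 rise without Control replicates 1 and 3 and a median of 0.74. Fdps, of the isoprenoid pathway, was at 47.4, 59.2 and 93.5 CPM in Control and 135, 203 and 126 at D27 (log2 1.21), and Fdft1, the first enzyme committed to sterols, at 68.8, 75.5 and 79.6 and 132, 185 and 145 (1.04). Sqle, of sterol synthesis (0.91), and the fatty acid synthase Fasn (0.92) rose, while Acly (-0.31), Scd1 (0.18) and the regulators Srebf1 (0.41) and Srebf2 (0.24) were not called.

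Drug-handling genes fell in part. Of 16 cytochromes P450 and their regulators 6 fell and 1 rose, of 20 conjugating enzymes 8 fell and none rose, and of 14 ABC transporters 4 fell and 3 rose. Cyp2c55 was at 406, 580.0 and 862 CPM in Control and 209, 206 and 183 at D27 (log2 -1.63), and Cyp2b10 had 66 counts in Control and none at D27, at least 24.1-fold lower taking 3 counts over the group as the floor. The xenobiotic receptor Nr1i2 fell slightly (-0.44). Abcb1a, a drug efflux pump, was at 614, 732 and 831 and 297, 209.7 and 269 CPM (-1.49), whereas the cholesterol exporters Abca1 (0.68) and Abcg1 (1.11) rose. The glutathione transferase Gsta4 (-1.31) and the sulfotransferase Sult1d1 (-0.98) fell. The bile acid transporter Slc10a2, known from the ileum, was at 10.8, 8.91 and 10.98 and 1.51, 0.826 and 1.30 CPM. Leaving out Control replicates 1 and 3 together, edgeR calls were 0 rises and 1 fall on the cytochrome P450 list, 0 rises and 1 fall on the conjugating enzyme list and 0 rises and 1 fall on the ABC transporter list. Leaving out single libraries, falls on the conjugating enzyme list numbered 3 without D27 replicate 2, 4 without Control replicate 3 and 5 without D27 replicate 1 or Control replicate 1 and falls on the ABC transporter list numbered 2 without D27 replicates 1 or 2 or Control replicates 2 or 3. By the same edgeR test, calls did not survive for Cyp2c55 without D27 replicate 2 or Control replicate 3 (adjusted p up to 0.0616), for Gsta4 without D27 replicates 1 or 2 or Control replicates 1 or 3 (adjusted p up to 0.109) and for Nr1i2 without D27 replicate 2 or Control replicate 1 (adjusted p up to 0.0681).

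Of 10 mitochondrially encoded genes tested 6 fell. A complex I subunit, mt-Nd5, was at 2766, 2541 and 2734 CPM in Control and 1457, 1484 and 1890.4 at D27 (log2 -0.73), and mt-Nd1 at 2915, 2771 and 2991 and 1599.7, 1587 and 2547 (-0.60). The most abundant, mt-Co1, was at 18432, 18055 and 17948 and 13226, 12855 and 19584 CPM and was not called. Summed over the list the shares were 3.37, 3.18 and 3.33% and 2.20, 2.11 and 3.24%, so D27 replicate 3 lay within the Control range. Only 1 gene fell without Control replicates 1 and 3. Of 17 respiratory chain genes of the nucleus none was called by edgeR, DESeq2 or limma-voom, and 0 had an unadjusted edgeR p under 0.05. The genes mt-Co2, mt-Co3 and mt-Atp6, also among the falls, had at most 22.0 CPM in either group's mean, and since nuclear copies of such genes exist their values are uncertain. Single libraries carried some of these calls, which were lost for mt-Nd1 without D27 replicates 1 or 2 or Control replicates 1 or 3 (adjusted p up to 0.101).

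Protein folding genes of the endoplasmic reticulum were higher. Of 22 unfolded protein response genes, the pathway that adjusts folding capacity, 17 rose and none fell (5 without Control replicates 1 and 3, median 0.50). Creld2 was at 24.2, 30.7 and 27.6 CPM in Control and 72.2, 119.7 and 71.4 at D27 (log2 1.67), the chaperone cofactor Sdf2l1 at 20.97, 24.5 and 19.8 and 58.05, 90.6 and 48.7 (1.60), and the chaperone Hspa5 at 412, 513 and 401 and 772, 1098 and 837 (1.03). Manf (1.50) and Pdia6 (1.19) rose, with the sensor Ern2 of mucus-secreting cells (0.53) and Xbp1 (0.39) by less. Herpud1 (-0.34) and Sel1l (-0.01) were not called. Heat shock chaperones of the cytosol gave no edgeR call among 15 tested, with 4 members at an unadjusted p under 0.05, 3 called by DESeq2 and 1 by limma-voom, and 3 called by edgeR without D27 replicate 1. In fits leaving out 1 library, the call was lost for Xbp1 without D27 replicates 1, 2 or 3 or Control replicates 1 or 3 (adjusted p up to 0.164).

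Crypt genes gave a mixed picture. Of 19 Wnt targets and stem cell genes 2 rose and 3 fell, 26.3% beside 19.5% called over all genes, with a median of 0.04. The stem cell receptor Lgr5 was at 16.9, 18.6 and 14.5 CPM in Control and 8.64, 5.10 and 7.63 at D27 (log2 -1.22, adjusted p = 0.0139), and Tnfrsf19, another receptor, fell (-1.27). Ccnd1 (0.72) and Cd44 (0.46) rose, and Axin2 (0.46), Myc (0.04) and Sox9 (-0.19) were not called. Hes1, the Notch target that favours absorptive fate, was at 100.5, 83.3 and 107 and 41.3, 40.01 and 49.6 CPM (-1.15), while Atoh1 (0.85) and Gfi1, which promote secretory fate, rose, Gfi1 from 6.37, 7.08 and 5.92 to 23.4, 16.4 and 14.3 CPM. The posterior gut factor Cdx2 was at 36.99, 26.2 and 25.4 and 87.5, 97.2 and 74.6 CPM (1.55), higher in every D27 library. In the EGF family 4 of 11 fell and none rose, Erbb3 (-0.61), Erbb2 (-0.62), Tgfa (-0.75) and Btc (-1.09). The edgeR fit without Control replicates 1 and 3 gave 1 rise and 0 falls on the Wnt targets and crypt stem cells list, 1 rise and 1 fall on the Notch pathway and secretory fate list and 0 rises and 3 falls on the EGF family list. In fits without 1 library, falls on the Wnt targets and crypt stem cells list numbered 1 without D27 replicate 2 and rises on the Notch pathway and secretory fate list numbered 1 without D27 replicate 2 or Control replicate 2. Some calls depended on 1 library and were lost for Atoh1 without D27 replicate 2 or Control replicate 2 (adjusted p up to 0.0963), for Cd44 without D27 replicate 3 or Control replicates 1 or 3 (adjusted p up to 0.0823) and for Erbb3, Lgr5 and Tnfrsf19 without D27 replicate 2 (adjusted p up to 0.0781).

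Among genes of regenerating epithelium, known from repair after DSS, 5 of 15 rose and 2 fell. Plet1 was at 2.32, 0.511 and 1.40 CPM in Control and 9.81, 28.3 and 16.2 at D27 (log2 3.65), Clca4b at 7.98, 25.7 and 9.79 and 61.6, 77.1 and 80.6 (2.34), and Ly6a, a marker of the repairing crypt, at 169.5, 248 and 175 and 592, 617 and 461 (1.50). Clu (0.80) and Msln (3.68) rose and Anxa3 (-0.32) fell, while Anxa1 (-0.68) and the YAP targets Ccn1 (0.44) and Ccn2 (0.19) were not called. Of 22 proliferation genes 9 rose and none fell. The replicative helicase gene Mcm2 rose from 31.3, 30.6 and 31.8 to 56.9, 77.7 and 54.1 CPM (1.01). The helicase genes Mcm5 (0.96) and Mcm3 (0.90) and the marker Mki67 (0.74) rose too. Of mitotic genes the kinase Plk1 rose, and Ccnb1 (0.23) and Birc5 (0.25) were not called. The Plk1 call was lost without D27 replicate 2 or Control replicate 1 (edgeR adjusted p up to 0.0867). With Control replicate 2 as the only Control library, edgeR called 1 rise and 1 fall on the regenerating epithelium list and none on the proliferation list (9 at an unadjusted p under 0.05). Left out singly, some libraries moved these counts, so that rises on the regenerating epithelium list numbered 3 without D27 replicate 2 or Control replicate 1 and rises on the proliferation list numbered 3 without D27 replicate 2 or Control replicate 1. With 1 library left out, calls were lost for Anxa3 without D27 replicates 1 or 2 or Control replicates 2 or 3 (adjusted p up to 0.116), for Clca4b without D27 replicate 2 or Control replicates 1 or 3 (adjusted p up to 0.0804), for Clu without D27 replicates 1 or 2 or Control replicate 1 (adjusted p up to 0.0720) and for Mki67 without D27 replicate 2 or Control replicate 1 (adjusted p up to 0.0926).

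DNA repair was looked at because of the drug arm of the series. Apex1, which encodes the enzyme that the drug of this series targets, was at 3.73, 4.89 and 5.66 CPM in Control and 7.03, 6.20 and 4.34 at D27, and was not called (log2 0.30, SE 0.284, adjusted p = 0.505). Of 18 genes of base excision, alkylation and mismatch repair Ung (0.69) rose and Tdg (-0.45) fell, 11.1% beside 19.5% called over all genes. The alkyl transferase Mgmt was not called (-0.24). Of 12 p53 targets none was called by edgeR, where 3 had an unadjusted p under 0.05, 2 were called by DESeq2 and 1 by limma-voom. Cdkn1a was at log2 -0.28 and Mdm2 at -0.16. Of 20 NRF2 and redox genes 3 rose and 2 fell, 25.0% beside 19.5% called over all genes. The rise in Gpx2, a gut glutathione peroxidase, was from 224, 359 and 315 to 623, 1080.0 and 570.2 CPM (1.34). Once Control replicates 1 and 3 were left out, edgeR called none on the repair list (1 at an unadjusted p under 0.05) and none on the NRF2 and redox list (4 at an unadjusted p under 0.05). Among these genes, the call was lost for Ung without D27 replicate 2 or Control replicates 1 or 3 (adjusted p up to 0.162).

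Prostaglandin genes moved in both directions, 4 rising and 6 falling of 19. Beside Pla2g4c, the secreted phospholipase Pla2g2a was at 1.42, 3.72 and 1.86 CPM in Control and 25.3, 41.7 and 26.4 at D27 (log2 3.75). Hpgd, which degrades prostaglandin E2, was at 183, 165 and 155 and 111, 79.3 and 100.2 (-0.79), and its uptake carrier Slco2a1 at 206, 209.6 and 237 and 127, 105 and 115 (-0.91). The inducible synthase Ptgs2, at 3.99, 6.13 and 4.93 and 6.41, 5.23 and 13.3 CPM, was not called, and the constitutive Ptgs1 fell slightly (-0.37). Leaving out Control replicates 1 and 3 together, edgeR calls were 1 rise and 1 fall on the prostaglandin list. By edgeR again, falls on the prostaglandin list numbered 2 without D27 replicates 1 or 2 and 3 without Control replicate 2. By the same edgeR test, calls did not survive for Ptgs1 without D27 replicates 1 or 2 or Control replicates 1 or 2 (adjusted p up to 0.0770).

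Antigen presentation by MHC class II, which displays peptides to helper T cells, was higher at D27. Of 10 genes tested 9 rose (6 without Control replicates 1 and 3, median 1.72), and H2-DMb2 was not called (1.10). Cd74, the invariant chain, was at 204, 202 and 266 CPM in Control and 1145, 880.1 and 825 at D27 (log2 2.08, SE 0.257, adjusted p = 1.57e-04), H2-Aa at 123, 135 and 157 and 655, 453 and 444 (1.90), and Ciita, the master regulator of the class, at 12.99, 18.3 and 13.1 and 48.2, 44.96 and 36.8 (1.55). Class I genes, which present peptides from within the cell, rose in 12 of 13 cases (5 without Control replicates 1 and 3, median 0.94). Nlrc5, their regulator, was at 15.7, 9.71 and 13.4 and 64.3, 50.1 and 40.7 CPM (1.99), the immunoproteasome subunit Psmb9 at 19.7, 16.7 and 21.97 and 82.6, 70.9 and 52.9 (1.82), and B2m, the light chain, at 329, 333 and 348 and 1025, 775 and 818 (1.37). Erap1, a peptide trimmer, was not called (0.25). The class II promoters hold a CCAAT box in 7 of 7 genes with a sequence, a motif found in 37.4% of all promoters of that length and 41.1% of their genes.

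The interferon response was higher in 18 of 22 genes tested, with none lower, 14 of them rising without Control replicates 1 and 3, and a median of 1.27. Oas2, a sensor of double-stranded RNA, was at 27.5, 9.57 and 13.1 CPM in Control and 127, 99.8 and 42.9 at D27 (log2 2.42), Mx1, an antiviral GTPase, at 11.2, 4.67 and 8.45 and 31.6, 35.9 and 26.6 (1.95), and Isg15, a ubiquitin-like modifier, at 33.1, 6.72 and 22.5 and 89.5, 90.8 and 44.1 (1.84). Irf7, which amplifies the response, was at 133, 89.3 and 124 and 341, 314 and 184 CPM (1.28), and the transducers Stat2 (1.26) and Irf9 (0.66) rose. Ifit1 (0.99), Ifit3 (0.88) and Mx2 (1.04) missed the threshold, and Ifih1 was at -0.03. The interferon gamma gene Ifng had 1 count in all 6 libraries together and was not tested. Single libraries carried some of these calls, which were lost for Isg15 without D27 replicate 2 (adjusted p up to 0.0510).

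In the same promoter set a pair of GAAA runs separated by any 2 bases, the core of the interferon-stimulated response element, was searched on both strands. It was found in 10 of 16 interferon response genes with a promoter, against 3.44% of all promoters and 3.99% of their genes: Isg15, Oas1a, Oas3, Stat2, Rsad2, Gbp2, Bst2, Ifit1, Ifit3 and Ifih1. The last 3 were not called, so the motif was present in called and uncalled members alike. The promoters of Isg15 (chr4:156200769-156201068, minus strand) with 3 overlapping matches and Oas1a (chr5:120907476-120907775, minus strand) with 2 are shown, with the matches in capitals, as examples of genes that rose.
Isg15: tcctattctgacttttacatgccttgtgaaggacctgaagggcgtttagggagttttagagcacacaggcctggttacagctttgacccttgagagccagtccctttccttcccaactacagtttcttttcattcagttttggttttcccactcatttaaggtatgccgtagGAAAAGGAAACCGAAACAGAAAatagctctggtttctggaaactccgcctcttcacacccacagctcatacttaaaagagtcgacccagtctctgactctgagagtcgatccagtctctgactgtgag
Oas1a: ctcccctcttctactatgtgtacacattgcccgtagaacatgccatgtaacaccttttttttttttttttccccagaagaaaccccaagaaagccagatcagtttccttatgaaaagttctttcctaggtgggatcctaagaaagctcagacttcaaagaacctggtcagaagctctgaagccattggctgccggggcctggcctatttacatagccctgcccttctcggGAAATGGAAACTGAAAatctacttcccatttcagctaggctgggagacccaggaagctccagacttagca

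**Figure D4:**
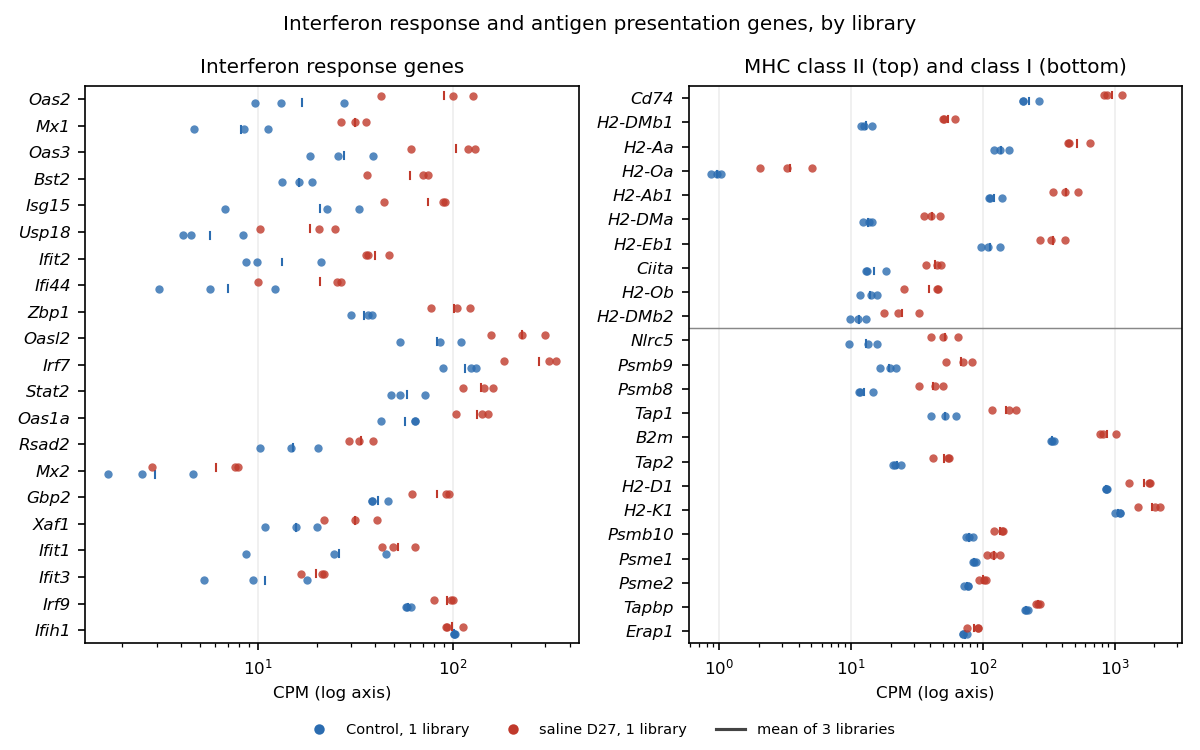
CPM (log axis) of interferon response genes described here (left) and MHC class II and class I genes (right) in each library, with a bar at each group's mean. In the right panel the D27 libraries lie above all Control libraries for Cd74, H2-Aa and Nlrc5, and in the left panel the Control libraries of Isg15, Ifi44 and Ifit3 spread widely.

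T cell genes were higher, 17 of 21 tested with none lower and a median of 1.88. Cd4, of helper cells, was at 5.02, 4.67 and 7.46 CPM in Control and 25.1, 27.1 and 15.3 at D27 (log2 1.97), Cd8a, of cytotoxic cells, at 1.93, 1.39 and 1.66 and 10.5, 10.7 and 5.46 (2.41), and the costimulator Icos at 0.965, 0.730 and 0.266 and 3.85, 4.48 and 2.23 (2.41). The regulatory T cell factor Foxp3 (1.51) and Pdcd1 (0.99) were not called. Only 1 gene rose without Control replicates 1 and 3. Cytotoxic genes gave 3 rises of 10, 30.0% beside 10.2% rising and 19.5% called in either direction over all genes. They were Gzmb, from 0.836, 0.511 and 1.26 to 6.30, 4.13 and 3.78 CPM, Nkg7 (2.04) and Ctsw (1.91). Receptors that bring lymphocytes to the gut rose in 7 of 14 cases, among them Itgb7 (1.74), Itga4 (1.25) and Vcam1 (0.76), the ligand on vessels. The edgeR fit without Control replicates 1 and 3 gave 1 rise and 0 falls on the cytotoxic lymphocyte list and none on the homing receptor list (9 at an unadjusted p under 0.05). Counts depended on single libraries, and rises on the T cell list numbered 11 without D27 replicate 2. In fits leaving out 1 library, the call was lost for Nkg7 without D27 replicates 1 or 2 or Control replicates 2 or 3 (adjusted p up to 0.104).

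Of 15 B cell genes 7 rose, and none was called by edgeR without Control replicates 1 and 3, where 4 had an unadjusted p under 0.05. Cd79a was at 12.99, 15.5 and 16.5 CPM in Control and 55.8, 73.95 and 29.7 at D27 (log2 1.82), and Ms4a1 was not called (1.47). Leaving out single libraries, rises on the B cell list numbered 0 without D27 replicate 2, 1 without Control replicate 1, 2 without Control replicate 3 and 4 without D27 replicate 1 or Control replicate 2. Plasma cell genes rose in 15 of 18 cases (6 without Control replicates 1 and 3, median 2.03). Igha, the heavy chain of the gut antibody IgA, was at 969, 1308 and 1258 and 6208, 6071 and 3294 CPM (2.14), and Jchain, which joins IgA dimers, at 319, 381 and 411 and 1210.4, 1034 and 891 (1.50). Among IgG heavy chains Ighg2c went from 5.92, 11.98 and 14.2 to 211, 133 and 157 CPM (3.96) and Ighg1 from 1.87, 4.46 and 4.39 to 19.6, 93.4 and 15.6 (3.58). The epithelial transporter Pigr, which carries IgA to the lumen, was not called (0.22). Constant region genes resemble each other, so reads may be divided among them. Some calls depended on 1 library and were lost for Cd79a without D27 replicate 2 (adjusted p up to 0.0583) and for Ighg1 without D27 replicate 2 or Control replicate 1 (adjusted p up to 0.0876).

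Chemokines and their receptors rose in 14 of 35 cases and 1 fell. Ccl8, a monocyte and T cell attractant, was at 2.89, 2.56 and 1.86 CPM in Control and 20.3, 23.1 and 13.1 at D27 (log2 2.95), and Cxcl9, which interferon gamma induces, at 0.901, 0.657 and 2.86 and 14.7, 5.51 and 6.70 (2.60), with its receptor Cxcr3 also higher (2.02). Ccl28, which draws IgA-secreting cells to the colon, fell from 195, 220.3 and 179 to 145, 116 and 156 CPM. Of 31 interleukins and receptors 9 rose and 4 fell. The falls were in genes that epithelial cells express, Il18, at 94.2, 114 and 90.7 and 63.6, 42.97 and 59.4 CPM (-0.85), Il15 (-1.25), Il1rn (-0.65) and the interleukin-22 receptor Il22ra1 (-0.65), while Il18bp, which blocks interleukin-18, rose (1.42). Il22 itself had 0, 28 and 5 counts in Control and 2, 2 and 3 at D27. With Control replicate 2 as the only Control library, edgeR called 1 rise and 0 falls on the chemokine list and 2 rises and 2 falls on the interleukin list. In fits without 1 library, rises on the chemokine list numbered 8 without D27 replicate 1 or Control replicate 2 and 9 without Control replicate 1. With 1 library left out, calls were lost for Ccl28 without D27 replicate 2 or Control replicate 2 (adjusted p up to 0.0979), for Cxcr3 without D27 replicate 1 or Control replicates 1 or 2 (adjusted p up to 0.122) and for Il22ra1 without D27 replicate 2 or Control replicates 1 or 2 (adjusted p up to 0.102).

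Acute inflammation and neutrophil genes gave 3 rises of 13, 23.1% beside 10.2% rising and 19.5% called in either direction over all genes. Il1b was at 0.901, 1.68 and 1.07 CPM in Control and 7.08, 3.31 and 8.81 at D27 (log2 2.40), Csf3r at 1.48, 2.56 and 1.13 and 6.19, 4.96 and 10.6 (2.08) and Saa3 at 0.450, 0.219 and 0.266 and 0.836, 0.826 and 1.61 (1.77). The neutrophil proteins S100a8 (1.00) and S100a9 (0.04) and the epithelial Lcn2 (0.52) and Saa1 (0.03) were not called, and S100a9 and Lcn2 were below 6 CPM in the mean of either group. Enzymes that make oxidants rose in 10 of 15 cases, and 1, Duox1, fell. The Duox1 call was lost without D27 replicates 1, 2 or 3 or Control replicates 1 or 3 (edgeR adjusted p up to 0.121). Duox2, an epithelial source of hydrogen peroxide, was at 113, 214 and 115 and 452, 506 and 402 CPM (1.62), its maturation factor Duoxa2 at 10.5, 21.4 and 12.5 and 59.7, 81.8 and 47.01 (2.09), and Nos2, the inducible nitric oxide synthase, at 2.89, 5.77 and 6.12 and 29.6, 27.5 and 19.7 (2.38). Nox1 (0.92) and the phagocyte oxidase Cybb (1.04) rose as well. Once Control replicates 1 and 3 were left out, edgeR called none on the acute inflammation list (6 at an unadjusted p under 0.05) and none on the oxidant enzyme list (7 at an unadjusted p under 0.05). Left out singly, some libraries moved these counts, so that rises on the oxidant enzyme list numbered 6 without D27 replicate 2. Among these genes, the call was lost for Cybb without D27 replicate 1 or Control replicates 1 or 2 (adjusted p up to 0.0839), for Nox1 without D27 replicate 2 (adjusted p up to 0.0542) and for Saa3 without any 1 of the 6 libraries (adjusted p up to 0.151).

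Macrophage and dendritic cell genes rose in 8 of 20 cases, with Cd163 lower. Lyz2, lysozyme, was at 128, 165 and 163 CPM in Control and 433, 326 and 336 at D27 (log2 1.26), C1qb, of complement's first component, at 28.9, 37.6 and 33.9 and 91.5, 60.8 and 62.95 (1.10), and Cd163, a scavenger receptor of tissue-resident cells, at 14.1, 23.6 and 24.9 and 9.70, 8.74 and 9.86 (-1.14). Mrc1 (0.25) and Csf1r (0.51) were not called. Complement genes rose in 6 of 13 cases, C3 from 119.9, 119.6 and 162 to 452, 422 and 384 CPM (1.65). Of pattern receptors 5 of 19 rose and 1 fell, 31.6% beside 19.5% called over all genes. Nod2, which senses bacterial cell wall, rose from 3.02, 2.26 and 2.66 to 8.70, 9.09 and 8.25 CPM (1.71). Of NF-kB and TNF genes 6 of 20 rose, 30.0% beside 10.2% rising and 19.5% called in either direction over all genes. Ltb (1.99) led them, while Tnf (1.02), Nfkb1 (-0.05) and Nfkbia (-0.41) were not called. Leaving out Control replicates 1 and 3 together, edgeR calls were none on the macrophage list (9 at an unadjusted p under 0.05), 2 rises and 0 falls on the complement list, 0 rises and 1 fall on the pattern receptor list and none on the NF-kB and TNF list (6 at an unadjusted p under 0.05). By edgeR again, rises on the complement list numbered 3 without Control replicate 1, rises on the pattern receptor list numbered 1 without D27 replicate 1 or Control replicate 1 and 3 without D27 replicate 2 or Control replicate 2 and rises on the NF-kB and TNF list numbered 2 without D27 replicate 2 and 3 without D27 replicate 1 or Control replicates 1 or 3. By the same edgeR test, calls did not survive for Cd163 without D27 replicates 1, 2 or 3 or Control replicates 2 or 3 (adjusted p up to 0.104) and for Ltb without D27 replicate 2 or Control replicate 3 (adjusted p up to 0.0632).

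Fibroblast and matrix genes were lower in 11 of 20 cases and higher in 1, with a median of -0.40 and 3 falls without Control replicates 1 and 3. Postn, a matricellular protein, was at 514, 621 and 541 CPM in Control and 341, 259 and 389 at D27 (log2 -0.76), the proteoglycan Dcn at 509, 461 and 514 and 345, 238 and 361 (-0.65) and the collagen Col3a1 at 1245, 1619.5 and 1428 and 1108, 888 and 1034 (-0.50). Tnc, a matrix protein of repair, rose (0.50), and Fn1 (0.11) and the basement membrane collagen Col4a1 (0.02) were not called. Matrix remodelling genes gave 3 rises and 4 falls, including Timp3 (-0.60), of 15, 46.7% beside 19.5% called over all genes. Smooth muscle genes took 1.44, 1.35 and 1.38% of counts in Control and 0.961, 1.04 and 1.30% at D27. Of 14 tested 2 fell, Tpm2 (-0.55) and Myl9 (-0.47), 14.3% beside 9.36% falling and 19.5% called in either direction over all genes. Endothelial genes gave no edgeR call among 14, with 3 at an unadjusted p under 0.05, 0 DESeq2 calls and 1 limma-voom call. Enteric neuron and glia genes gave 1 fall among 17, 5.88% beside 9.36% falling and 19.5% called in either direction over all genes. The edgeR fit without Control replicates 1 and 3 gave 0 rises and 1 fall on the matrix remodelling list, none on the smooth muscle list (0 at an unadjusted p under 0.05) and none on the enteric neuron and glia list (4 at an unadjusted p under 0.05). Counts depended on single libraries, and falls on the fibroblast list numbered 4 without D27 replicate 2, 6 without Control replicate 2 and 7 without Control replicate 3, falls on the matrix remodelling list numbered 2 without D27 replicate 2 and falls on the smooth muscle list numbered 0 without D27 replicates 1 or 2 or Control replicates 1 or 3. Single libraries carried some of these calls, which were lost for Col3a1 and Dcn without D27 replicate 2 (adjusted p up to 0.0645), for Myl9 without D27 replicates 1 or 2 or Control replicates 1, 2 or 3 (adjusted p up to 0.147), for Tnc without D27 replicate 3 or Control replicates 1 or 3 (adjusted p up to 0.105) and for Tpm2 without D27 replicates 1 or 2 or Control replicates 1 or 3 (adjusted p up to 0.103).

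Adipocyte markers varied by library and pancreatic markers by group. Adipocyte genes took 0.0281, 0.00948 and 0.0233% of counts in Control and 0.0300, 0.0272 and 0.0123% at D27, so the groups overlapped. Of 12 tested 4 rose, 33.3% beside 10.2% rising and 19.5% called in either direction over all genes. Cfd, adipsin, was at 4.37, 2.56 and 20.2 CPM in Control and 72.9, 64.9 and 12.9 at D27 (log2 2.47). Pancreatic genes took 0.000840, 0.000960 and 0.00103% of counts in Control and 0.00583, 0.00515 and 0.00511% at D27, with no overlap. Over the 12 tested the median log2 fold change was 3.12. Against Control replicate 2 alone, with a prior count of 2 that damps low counts, the median was 0.888. Of 12 in the list, 7 to 8 had no count in each Control library and 0 to 2 in each D27 library. Only Clps, a colipase, was called (5.40, 6.43 and 6.32 and 53.2, 48.3 and 45.03 CPM), 8.33% of the list beside 19.5% over all genes. Clps held most of the list's counts in every library. The part of these markers in other results was not tested. Ctrb1, a digestive protease, had 2 counts over the Control group and 24 over the D27 group (ratio 10.9, 95% counting interval 2.72 to 95.5), while the defining enzymes Cpa1, Cela3b, Cela2a, Pnlip and Try5 had no count in any Control library and means of at most 0.21 CPM at D27. With Control replicate 2 as the only Control library, edgeR called 1 rise and 0 falls on the adipocyte list and none on the exocrine pancreas list (0 at an unadjusted p under 0.05). Leaving out single libraries, rises on the adipocyte list numbered 0 without D27 replicates 1 or 2 or Control replicate 1 and 1 without Control replicate 2. In fits leaving out 1 library, the call was lost for Cfd without D27 replicates 1 or 2 or Control replicates 1 or 2 (adjusted p up to 0.146) and for Clps without any 1 of the 6 libraries (adjusted p up to 0.128).

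**Figure D5:**
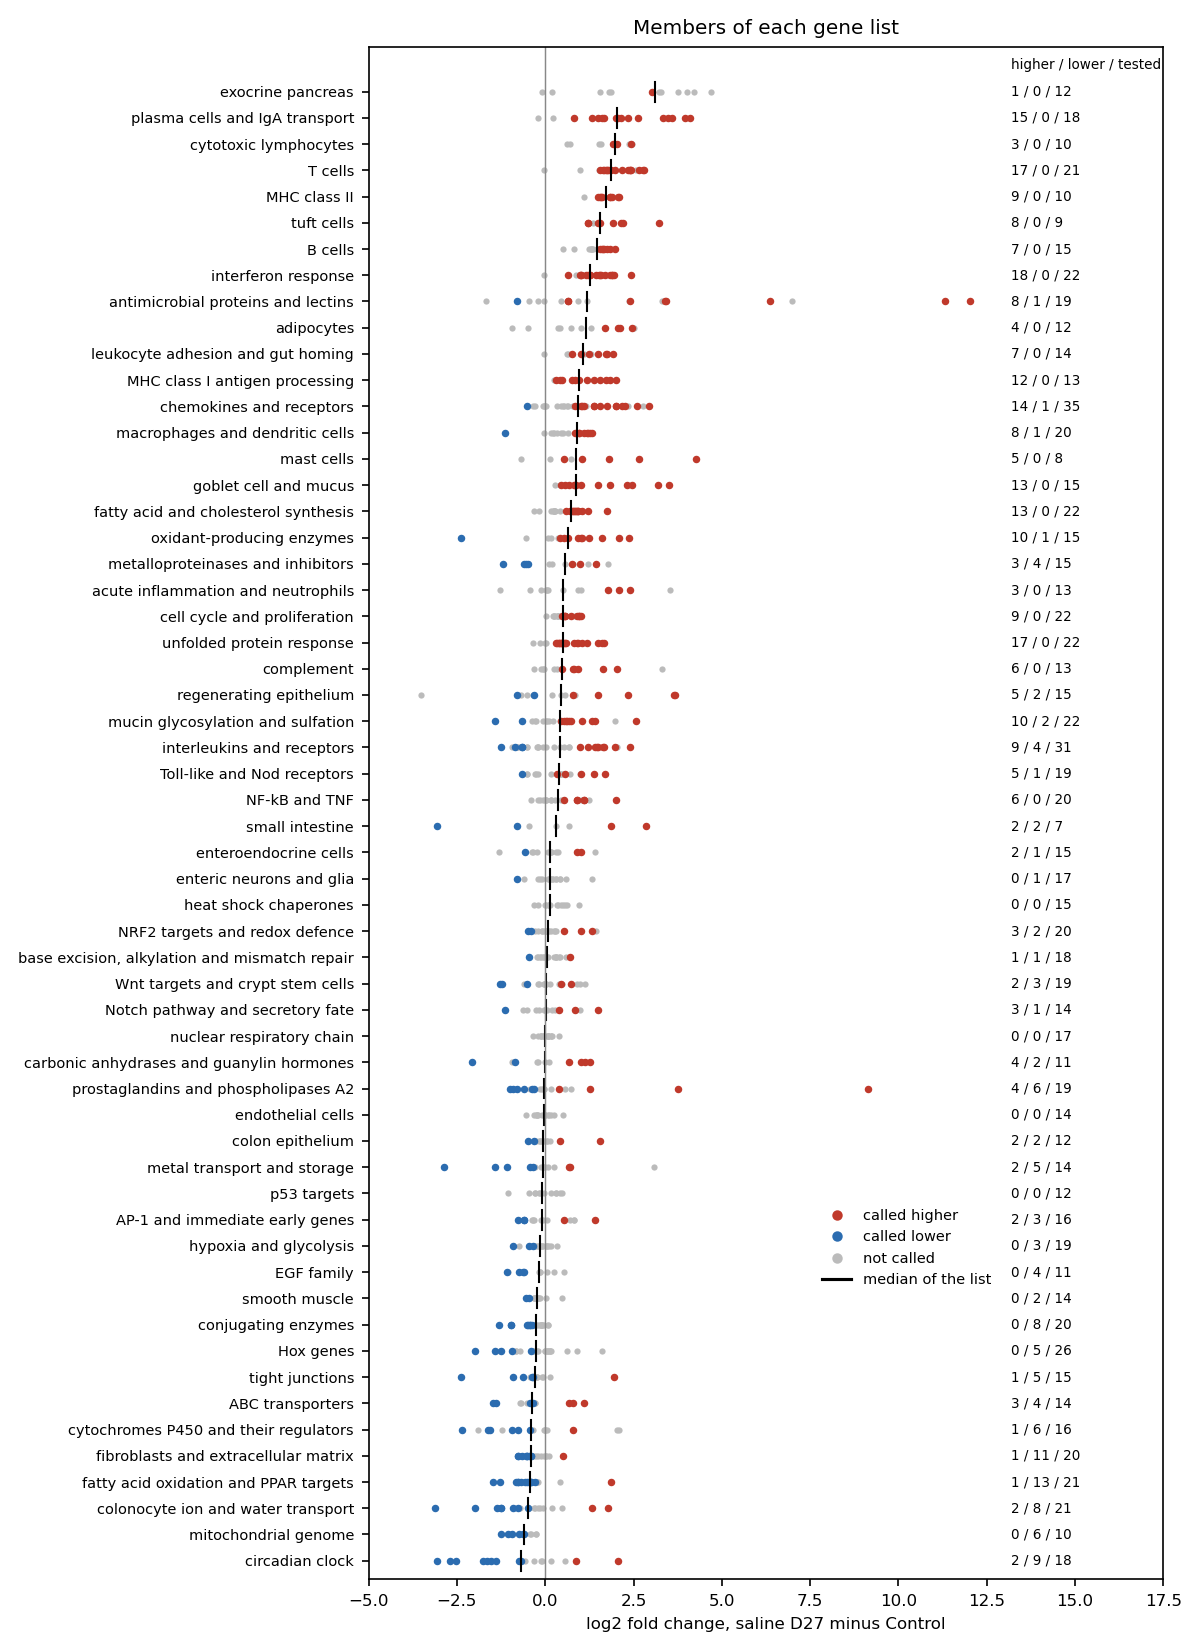
Log2 fold change of every tested member of each gene list with at least 5 members tested, other than the squamous and skeletal muscle lists, ordered by median, with called members in colour and the counts of higher, lower and tested members at the right. Plasma cell, T cell and MHC class II medians lie above 1.5, and the clock, mitochondrial and transport medians lie lowest.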

How the data were processed

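RNA from colon was sequenced in 15 libraries, 5 groups of 3. The authors deposited 1 table of raw read counts per gene (56859 genes). The genome build was GRCm38 (mm10), per the submitters' processing notes, while no source used here names the aligner, the counting tool or the strand setting. From the counts, edgeR 4.0.16 in R 4.3.3 fitted all 15 libraries (TMM, filterByExpr, quasi-likelihood test, contrast saline D27 minus Control, 10 residual degrees of freedom) with Benjamini-Hochberg adjustment over 18038 genes. CPM values were computed from the deposited counts. The 23552 genes with no count in any library were left out. The script was tested on simulated data. Gene lists and members were chosen with earlier results of these data known. Named genes were the 12 rises and 12 falls with the largest gap between groups, among called genes whose groups did not overlap and with a mean of at least 2 CPM in the higher group, the 6 largest folds in each direction, and up to 4 members per list, and some genes chosen in this way are not reported here. Coordinates are from GENCODE M21 and promoters from RefSeq (GRCm38.p6). Alternatives were DESeq2 1.42.0 size factors and test, library size only, 2 other filters, limma 3.58.1 voom, a replicate block, the 6 libraries alone, and libraries left out.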

Additional observations from a re-analysis of the deposited data

How the results depend on the processing

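The counts of 1833 rises and 1689 falls moved by less than 1.5 times under every alternative that kept all 6 libraries: 1811 and 1735 with DESeq2 size factors, 1531 and 1959 with library size only, 2104 and 1783 with no filter on low counts, 1831 and 1709 with a stricter filter, 2071 and 1929 by DESeq2, 2314 and 2392 by limma-voom, and 2015 and 1753 with the 6 libraries alone. Library size only moved the share of rises among the calls and shifted the median of all genes to -0.044, beside -0.00127. With 1 library left out at a time the rises ranged from 1022 to 1756 and the falls from 777 to 1566, and without Control replicates 1 and 3, where the lone Control library is assumed to vary like the other groups, 225 genes rose and 229 fell, fewer libraries being part of that fit. Of 245 named genes called, 187 kept their call under all 6 fits that left out 1 library. Without Control replicates 1 and 3, of the 245 genes 90 stayed called in the same direction, 144 kept the direction without the call and 11 reversed. The reversed genes, not called there, had log2 fold changes above 0, Acta1 (1.27), Actn2 (0.60), Actn3 (0.18), Atp2a1 (0.29), Dmkn (0.40), Lgals7 (1.76), Mybpc2 (2.26), Myh1 (0.27), Mylpf (1.53), Ryr1 (1.46) and Ttn (1.73). With the replicate number as a block 1716 genes rose and 1511 fell. The labels do not say that equal numbers share an animal or a batch. Deviations of same-numbered libraries correlated at 0.011, -0.0467 and -0.063, and those of other pairs at -0.0222 to 0.0623. These values gave no sign of pairing, though 3 libraries per group cannot exclude it. A low count need not mean low expression, since the counting is not described and Gapdh had a mean of 94.9 CPM in Control.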

Other observations

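Immediate early genes, which respond within a short time to stimulation, were divided at D27. Of 16 tested 2 rose and 3 fell, 31.2% beside 19.5% called over all genes (median log2 fold change -0.10). Nr4a1, an orphan nuclear receptor, was at 34.9, 19.9 and 18.8 CPM in Control and 61.1, 59.4 and 75.4 at D27 (log2 1.41, SE 0.306, edgeR adjusted p = 0.00532), and no library of one group reached the other. Within the Jun family Junb fell from 177, 244 and 212 to 133, 118 and 117 CPM (-0.78), Jund rose (0.53), and Jun itself was not called (-0.35). Zfp36, which destabilises cytokine transcripts (-0.59), and Fosl2 (-0.59) fell, while Fos (-0.60), Atf3 (0.80) and Egr1 (0.83) were not called. Leaving out single libraries, falls on the AP-1 and immediate early genes list numbered 0 without D27 replicate 3 or Control replicate 2 and 1 without D27 replicate 2. Among these genes, the call was lost for Fosl2 without D27 replicates 2 or 3 or Control replicates 1, 2 or 3 (adjusted p up to 0.189), for Junb without D27 replicates 2 or 3 or Control replicate 2 (adjusted p up to 0.0695), for Jund without D27 replicates 1 or 2 or Control replicates 1, 2 or 3 (adjusted p up to 0.0928) and for Zfp36 without D27 replicates 1 or 3 or Control replicate 2 (adjusted p up to 0.102).

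Among 19 glycolysis and hypoxia genes tested 3 fell by edgeR, 15.8% beside 9.36% falling and 19.5% called in either direction over all genes. None rose by edgeR, DESeq2 or limma-voom, and the median was -0.15. Pdk1, a kinase that inhibits pyruvate dehydrogenase, was at 116, 109.7 and 114 CPM in Control and 67.6, 48.1 and 64.1 at D27 (log2 -0.92, edgeR adjusted p = 5.13e-04). The oxygen sensor Egln1 (-0.47) and Ndrg1 (-0.34) fell by less. Lactate dehydrogenase Ldha (-0.06), the glucose carrier Slc2a1 (-0.15) and Vegfa (-0.17) were not called. Leaving out Control replicates 1 and 3 together, edgeR calls were 0 rises and 1 fall on the hypoxia and glycolysis list. Of 7 small intestinal genes tested, the phosphatase Alpi, at 0.129, 0.803 and 0.333 and 2.17, 4.68 and 2.29 CPM (2.85), and Fabp2 rose, and Rbp2, which binds retinol (-0.80), and Slc10a2 fell. By the same edgeR test, calls did not survive for Ndrg1 and Rbp2 without D27 replicates 2 or 3 or Control replicates 1, 2 or 3 (adjusted p up to 0.188).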
